A study of Mus musculus with 4 samples.

Results

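The genes described here are Il1r2, which encodes a decoy receptor for interleukin 1, and 9 subunits of interleukin receptors, encoded by Il2ra, Il2rb, Il2rg, Il4ra, Il21r, Il9r, Il10ra, Il6ra and Il6st. Every probe that the scanner files name after one of these 10 genes was taken, which gave 13 of the 39429 probes on the array. The RNA came from B cells of male mouse spleen, isolated with magnetic beads and cultured for 3 days. Both genotypes received the same stimuli, anti-IgM at 10 µg/mL as a trigger of the antigen receptor and the anti-CD40 clone FGK4.5 at 10 µg/mL in place of helper T cells. Mice labelled Ackr4ko lack Ackr4, an atypical chemokine receptor, and were 73 days old in experiment 1 and 71 days old in experiment 2. C57BL/6 mice labelled WT were 77 and 74 days old. Each of the 2 experiments used its own donors and gave 1 array per genotype, so n = 2 per genotype. The labels do not say how the Ackr4 allele was made or whether donors were pooled, and bulk RNA cannot tell fewer cells of a type from less RNA per cell.

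Interleukin receptors bind secreted cytokines at the cell surface and pass the signal on through kinases bound to their tails. Il2rg, the common gamma chain, is shared by the receptors for interleukins 2, 4, 9 and 21, and Il6st, also called gp130, is the shared signalling chain of the interleukin 6 family. Il1r2 binds interleukin 1 but lacks the intracellular domain needed to signal, so it takes the cytokine away from the signalling receptor. In B cells, receptors for interleukins 4, 21, 6 and 10 are known for their part in growth, antibody class switching and plasma cell formation.

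The probe for Il1r2 carries the difference that stands out most among these genes, and it is a single 60-base probe at chr1:40180014-40180073 (mm9, plus strand). The Il2rb gene has a pair of probes that both read higher in experiment 2, and their first 30 bases are shown to make plain that they read separate stretches of the gene, at chr15:78309771-78309830 for the brighter probe and chr15:78311109-78311168 for the dimmer one (mm9, minus strand). All are written as the scanner files give them, 5′ to 3′, in lower case because no part is singled out.
Il1r2, whole probe: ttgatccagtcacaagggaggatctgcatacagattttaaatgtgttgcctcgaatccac
Il2rb, brighter probe: ggattcagttctctttcaatgatctgtgca
Il2rb, dimmer probe: gtctattctggggtgggtttttctgtgaag
The files place the start of the Il1r2 probe at base 1062 of its transcript and the starts of the brighter and dimmer Il2rb probes at bases 4189 and 2506. They do not say whether a probe lies in coding or untranslated sequence. The Il2rb positions are counted on different transcripts, a predicted one for the brighter probe. The brighter Il2rb probe has a GC content of 35.0% and the dimmer one 51.7%.

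Values are log2 of the processed spot signal, scaled to each array's 75th percentile, and a genotype difference is labelled Ackr4ko minus labelled WT. Before scaling, that percentile was 1277 and 740 on the Ackr4ko-labelled arrays and 916 and 913 on the WT-labelled arrays. The array labelled WT in experiment 2 stood apart, with 6.24% of its spots marked as outliers against 1.79% to 2.12% on the other arrays. Its highest local background was 292, against 61 to 76, and 42.2% of its probes were well above background, against 49.5% to 54.9%. Whether a probe was well above background thus depended on the array as well as on its signal. The authors' deposited value table puts the genotypes the other way round: within each experiment its Ackr4ko column matched the WT scanner array best and its WT column the Ackr4ko one, with r of 0.9990 or above over 16207 probes, against 0.979 to 0.986 for equal labels. For Il1r2 the authors' deposited table lists 376 and 1621 under Ackr4ko and 7878 and 6199 under WT. Genotypes below are those of the scanner files, and every direction turns round if the table is right. The B cell identity genes Cd79a and Cd79b, which encode signalling chains of the antigen receptor, and Ms4a1 (CD20) were well above background on all 4 arrays.

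All 10 receptor genes were measurable in these cultures. The brightest probe of each was well above background on all 4 arrays, and these 10 were the probes of the 13 for which that held. Spots of a probe agreed closely, with a median SD of 0.0788 over the arrays and a range of 0.00896 to 0.416, and 3 of 208 spots were left out as outliers. The genes differed in how much they moved over the 4 arrays. The span was smallest for Il10ra, at 0.43 on the log2 scale, and largest for Il1r2, at 4.26.

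**Figure D1:**
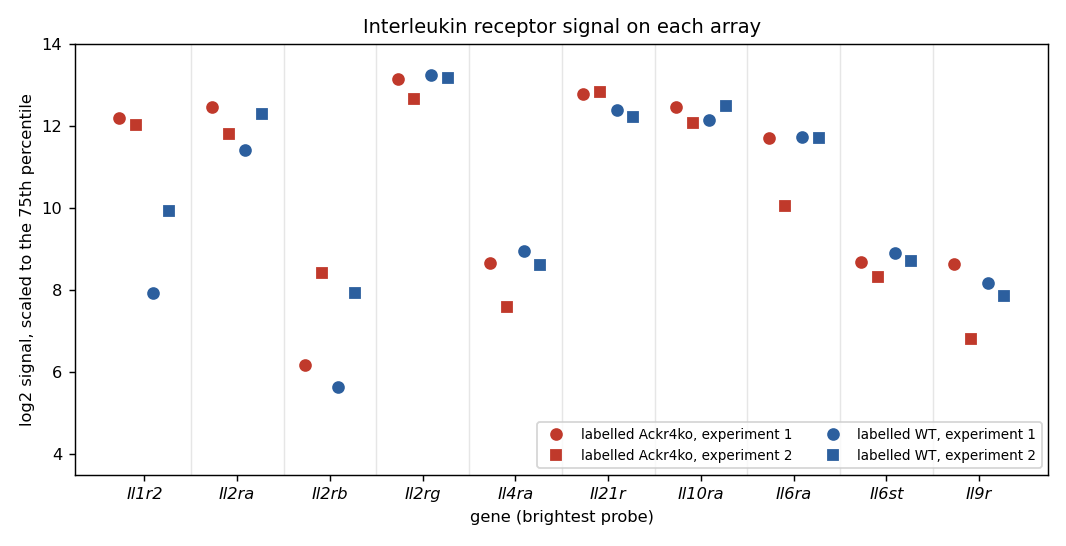
Log2 signal of the brightest probe of each gene, scaled to the array's 75th percentile, 1 point per array. Red marks arrays labelled Ackr4ko and blue the WT-labelled arrays, circles experiment 1 and squares experiment 2. Il1r2 has both Ackr4ko points above both WT points, while Il2rb separates by experiment. Heights of different genes are not comparable, because each probe has its own binding strength.

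The main comparison asked whether the 2 genotypes differ in these receptors after activation. Il1r2 was brighter on the Ackr4ko-labelled arrays in both experiments, Il2rb and Il21r were slightly brighter in both, and Il2rg, Il4ra, Il6ra and Il6st were dimmer in both. Il6ra was so by only -0.02 in experiment 1. The other 3 genes, Il2ra, Il10ra and Il9r, had differences of opposite sign in the 2 experiments. With limma over 15961 genes, 0 of the 10 receptors passed an adjusted p of 0.05, where 0.0125% of all tested genes did. An unadjusted p under 0.05 was reached by 1 receptor, Il1r2, and by 4.59% of all genes. Of the 10 receptors, 3 were higher in both experiments and 4 lower, against 33% and 20.9% of all genes.

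Il1r2 had log2 signals of 12.19 and 12.03 on the Ackr4ko-labelled arrays, experiments 1 and 2, and of 7.93 and 9.94 on the WT-labelled arrays. As scaled signals these were 4673 and 4175 under the Ackr4ko label and 243 and 983 under the WT label. Both Ackr4ko-labelled arrays were high and lay close together, both WT-labelled arrays were low and lay apart, and the genotypes did not overlap. The difference was 4.26 in experiment 1, a 19.2-fold change, and 2.09 in experiment 2, a 4.25-fold change. The mean was 12.11 ± 0.11 on the Ackr4ko-labelled arrays and 8.93 ± 1.42 on the WT-labelled arrays (SD, n = 2 each). The mean difference of 3.18 ± 0.58 (SE), 9.04-fold, did not pass in limma (adjusted p = 0.237), with a 95% interval of 1.85 to 4.50. Of the tested genes, 11 had a mean difference at least this high, Il1r2 included.

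The call on Il1r2 depended on the design of the fit. When the experiment was entered as a block, limma called it (adjusted p = 9.17e-17), as it did 2.04% of all genes in that direction and 3.33% in either. It called 0 receptors lower, against 1.3% of all genes. The blocked fit gives all genes 1 variance, so the p of 9.17e-17 does not measure the spread of Il1r2 itself. Over all alternatives its adjusted p ran from 1.21e-21 to 0.9998. Leaving out the WT-labelled array of experiment 2 gave a difference of 4.18, and leaving out the WT-labelled array of experiment 1 gave 2.17. Each of these fits sets 1 WT-labelled array against Ackr4ko-labelled arrays of both experiments, and so mixes experiment with genotype. By size alone, Il1r2 was the 1 receptor of 10 that was 2-fold or more higher in both experiments, as 1.28% of all genes were. In both experiments 0 receptors were 2-fold or more lower, against 0.514% of all genes, and 1.79% of all genes passed in either direction.

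Granulocytes and macrophages also express Il1r2, so their markers were read beside it. Of 8 neutrophil and mast cell markers, Ly6g and Elane were well above background and the other 6, S100a8, S100a9 and Cxcr2 among them, were so on no array. Ly6g was higher on the Ackr4ko-labelled array in both experiments, by 0.75 and 0.69, as were 33% of all genes. Elane differed by -0.27 and 0.11. The summed scaled signal of all 8, background readings included, was 1138 and 1213 on the Ackr4ko-labelled arrays and 1052 and 1037 on the WT-labelled arrays. Of 9 macrophage and monocyte markers, 4 (Lyz2, Cd14, C1qa and Vcam1) were well above background on no array. The summed signal, most of it from Mpeg1, was 38205 and 29115 on the Ackr4ko-labelled arrays and 47930 and 50143 on the WT-labelled arrays. Of the 5 tested, 2 (Cd68 and C1qb) were higher and 2 (Mpeg1 and Adgre1) lower in both experiments, against 33% and 20.9% of all genes. C1qb was higher by only 0.02 in experiment 1, and its WT-labelled array of experiment 2 was not well above background. Csf1r was at -0.81 in experiment 1 and 0.24 in experiment 2. Of 7 dendritic cell markers 4 were tested and 0 were called in limma (3 at an unadjusted p under 0.05, against 4.59% of all genes). Of these 4, 3 (Batf3, Flt3 and Zbtb46) were higher in both experiments, as were 33% of all genes. Batf3 was well above background on no WT-labelled array. It passed the filter through the Ackr4ko-labelled arrays alone, and its p rests on background readings. Siglech was at -0.21 in experiment 1 and 0.20 in experiment 2. The summed signal of the dendritic cell markers, most of it from Siglech, was 62682 and 75320 on the Ackr4ko-labelled arrays and 64511 and 62942 on the WT-labelled arrays. The part of these cells in the Il1r2 difference was not tested.

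Genes whose pattern over the 4 arrays was most like that of Il1r2 were found by the Euclidean distance between log2 values centred on each gene's mean. The 5 nearest with an established symbol were P4ha2, which hydroxylates collagen prolines, at a distance of 0.416, the glutathione transferase Gstt1 at 0.464, the oxygen sensor Egln3 at 0.759, the angiogenic growth factor Vegfa at 0.885 and the cell cycle inhibitor Cdkn2a at 0.981. A further 1 probe without an established symbol lay among them. Vegfa was well above background on all 4 arrays, with a mean difference of 2.63, and Egln3 on 3. P4ha2, Gstt1 and Cdkn2a were so on the 2 Ackr4ko-labelled arrays alone, so their WT values are background readings and their distances rest on them. The Egln3 value on the WT-labelled array of experiment 1 was also a background reading, and its distance rests in part on it.

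Receptor subunits that work with the common gamma chain came next. Il2ra, the alpha chain (CD25) that gives the interleukin 2 receptor its high affinity, had log2 signals of 12.46 and 11.81 on the Ackr4ko-labelled arrays and 11.43 and 12.29 on the WT-labelled arrays. The genotypes overlapped, with the Ackr4ko-labelled array higher in experiment 1 (1.04) and lower in experiment 2 (-0.48). In limma the mean difference was 0.28 ± 0.41 (SE), with a 95% interval of -0.66 to 1.21. Il2ra and Il1r2 were the 2 receptors at least 2-fold higher in experiment 1, where 3.08% of all genes were.

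Il2rg itself had log2 signals of 13.14 and 12.67 on the Ackr4ko-labelled arrays and 13.25 and 13.17 on the WT-labelled arrays. Both Ackr4ko-labelled arrays were lower than both WT-labelled arrays, with differences of -0.11 in experiment 1 and -0.50 in experiment 2. The mean difference was -0.31 ± 0.34 (SE, limma), with a 95% interval of -1.08 to 0.46. A lack of overlap in this direction was seen in 3 of the 10 receptors (Il2rg, Il6ra and Il6st) and in 10% of all genes. In the other direction it was seen in 2 (Il1r2 and Il21r) and in 19%.

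Il21r, which binds interleukin 21 from helper T cells, was at 12.77 and 12.82 on the Ackr4ko-labelled arrays and at 12.39 and 12.22 on the WT-labelled arrays. Both Ackr4ko-labelled arrays were the higher ones, and replicates of a genotype lay closer together than the genotypes did. The differences were 0.39 and 0.61, with a mean of 0.50 ± 0.32 (SE, limma) and a 95% interval of -0.23 to 1.23.

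Il4ra, the chain that binds interleukin 4 and also serves the interleukin 13 receptor, was at 8.66 and 7.60 on the Ackr4ko-labelled arrays and at 8.94 and 8.61 on the WT-labelled arrays. The Ackr4ko-labelled array of experiment 2 was the low one and the other 3 lay close together, so the genotypes overlapped. The difference was -0.29 in experiment 1, and in experiment 2 the signal was 2.01-fold lower, with a mean difference of -0.65 ± 0.41 (SE, limma) and a 95% interval of -1.59 to 0.30. Its dimmer probe read 5.35 and 5.34 on the Ackr4ko-labelled arrays and 6.14 and 5.14 on the WT-labelled arrays. That probe was well above background in experiment 1 alone, where it gave -0.80, so it holds no measured difference in experiment 2.

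Il9r, the receptor for interleukin 9, was at 8.64 and 6.80 on the Ackr4ko-labelled arrays and at 8.19 and 7.85 on the WT-labelled arrays. Its Ackr4ko-labelled arrays were the highest and the lowest of the 4, on either side of the WT-labelled arrays. The difference was 0.45 in experiment 1 and -1.05 in experiment 2, a mean of -0.30 ± 0.55 (SE, limma) with a 95% interval of -1.55 to 0.96. The dimmer Il9r probe also gave 0.45 in experiment 1 and was not well above background on either array of experiment 2.

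That dimmer probe, at chr11:32089002-32089061 (mm9, minus strand), holds a stretch and its reverse complement 22 bases apart. They are shown because they can pair within the probe, with capitals marking the paired bases.
Il9r dimmer probe, first arm: CAGCATTGTGAGC
Il9r dimmer probe, second arm: GCTCACAATGCTG
Paired arms of at least 13 bases were found in 5 of 39429 probes (0.0127%), and the other 12 receptor probes had arms of 3 to 6 bases. Whether the arms bear on its low signal was not tested. The brighter Il9r probe, at chr11:32090499-32090558, has arms of 5 bases and is the one used for the gene.

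**Figure D2:**
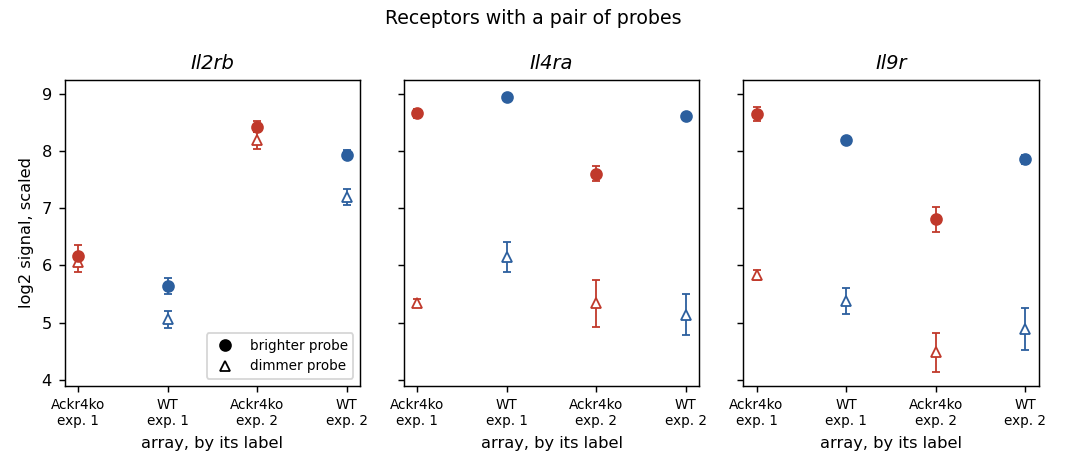
Log2 signal of both probes of Il2rb, Il4ra and Il9r on each array, with filled circles for the brighter probe and open triangles for the dimmer one; red is labelled Ackr4ko, blue labelled WT. Bars are the SD over the spots of a probe, which is technical error. Both Il2rb probes are high on the arrays of experiment 2, and the dimmer Il4ra and Il9r probes lie near background there.

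The interleukin 6 receptor has a binding chain and a signalling chain, and both were dimmer on the Ackr4ko-labelled arrays. Il6ra, the binding chain, was at 11.71 and 10.05 on the Ackr4ko-labelled arrays and at 11.73 and 11.72 on the WT-labelled arrays. A single array, Ackr4ko of experiment 2, was low, and the other 3 were nearly equal. The difference was -0.02 in experiment 1, which becomes 0.03 relative to the median of all genes, and -1.67 in experiment 2, a signal 3.18-fold lower. The mean was -0.84 ± 0.51 (SE, limma), with a 95% interval of -2.01 to 0.32, and Il6ra was not called with the block either (limma adjusted p = 0.244).

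Il6st, the signalling chain, was at 8.69 and 8.33 on the Ackr4ko-labelled arrays and at 8.90 and 8.71 on the WT-labelled arrays. Both Ackr4ko-labelled arrays were the lower ones, although 8.69 against 8.71 left almost no gap. The differences were -0.21 and -0.39, with a mean of -0.30 ± 0.33 (SE, limma) and a 95% interval of -1.05 to 0.46. Il10ra, the binding chain for interleukin 10, was at 12.46 and 12.07 on the Ackr4ko-labelled arrays and at 12.15 and 12.50 on the WT-labelled arrays. The genotypes overlapped, with differences of 0.31 and -0.43, a mean of -0.06 ± 0.34 (SE, limma) and a 95% interval of -0.84 to 0.72.

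Il4ra, Il6ra and Il9r were the 3 receptors at least 2-fold lower on the Ackr4ko-labelled array in experiment 2, where 3.98% of all genes were, and none of them was so in experiment 1. Il1r2 was the 1 receptor at least 2-fold higher in experiment 2, where 6.08% of all genes were. Over the 10 receptors the median difference was 0.35 in experiment 1 and -0.46 in experiment 2, against medians of -0.04 and 0.23 over all tested genes. The mean over both experiments had a median of -0.18 over the receptors and 0.08 over all genes. For the 9 receptors other than Il1r2 the limma adjusted p was 0.9996.

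**Figure D3:**
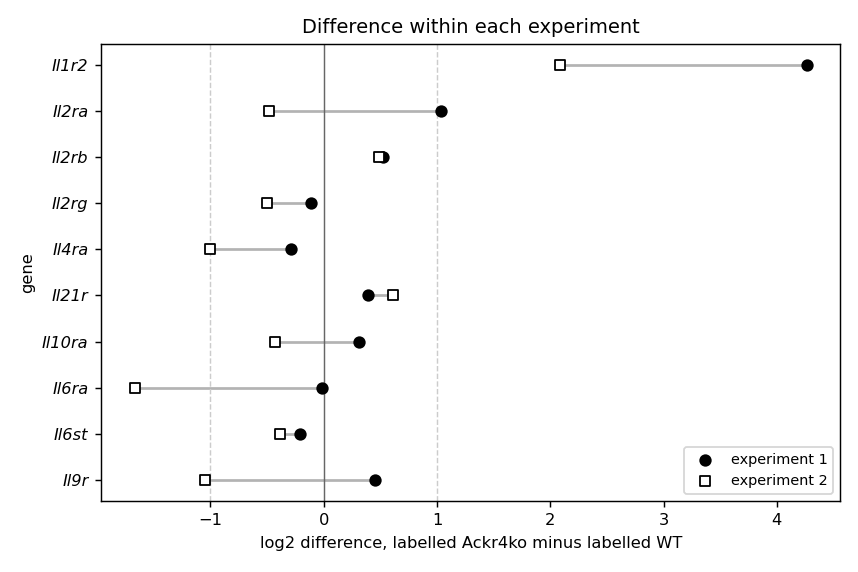
Log2 difference, labelled Ackr4ko minus labelled WT, for each receptor in experiment 1 (filled circles) and experiment 2 (open squares), joined by a line; dashed lines mark a 2-fold change. Il1r2 lies beyond 2-fold in both experiments, at 4.26 and 2.09, and Il2rb is the receptor whose experiments lie closest, at 0.52 and 0.49.

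Il2rb, the beta chain shared by the receptors for interleukins 2 and 15, varied with the experiment. Its brighter probe read 6.17 and 8.42 on the Ackr4ko-labelled arrays and 5.64 and 7.93 on the WT-labelled arrays. Its dimmer probe read 6.06 and 8.18 on the Ackr4ko-labelled arrays and 5.06 and 7.19 on the WT-labelled arrays, where in experiment 1 only 1 of 4 spots was well above background. Within each experiment the Ackr4ko-labelled array was the higher one by 0.52 and 0.49 with the brighter probe. The dimmer probe gave 1.00 in experiment 2 and, for the background reading just named, no measured difference in experiment 1. Across experiments the genotypes overlapped, and the mean difference was 0.51 ± 0.84 (SE, limma) with a 95% interval of -1.40 to 2.41.

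The experiments were then compared directly, which shows how much each receptor differed between the pairs of cultures. Il2rb averaged 8.18 ± 0.35 in experiment 2 and 5.90 ± 0.37 in experiment 1 (SD, n = 2 each), a difference of 2.27 or 4.83-fold. The dimmer probe was also higher on both arrays of experiment 2, but its difference is not given because its reading on the WT-labelled array of experiment 1 was not well above background. Both arrays of experiment 2 were high and both of experiment 1 low, with no overlap. In limma without a genotype term it was not called (adjusted p = 0.504). That fit called 0 of the 10 receptors and 0% of all genes, while 2 receptors, Il2rb and Il9r, and 1565 genes had an unadjusted p under 0.05. With a genotype term, and so 1 variance for all genes, limma called 2.06% of all genes in that direction and 4.07% in either. Il2rb was among them (limma adjusted p = 3.34e-08), a value that does not measure its own spread. Over the alternatives its adjusted p ran from 3.34e-08 to 0.659. With 1 array left out the difference ran from 2.01 to 2.53. The highest came without the Ackr4ko-labelled array of experiment 1, which leaves a WT-labelled array alone there and so mixes genotype with experiment.

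Il9r went the other way, averaging 7.33 ± 0.74 in experiment 2 and 8.41 ± 0.32 in experiment 1 (SD, n = 2 each). The difference of -1.09 was called with the genotype term (limma adjusted p = 0.0452), where 2.01% of all genes were lower, and was not called without it (limma adjusted p = 0.504). It ran from -1.61 to -0.56 with 1 array left out, without a call. Both arrays of experiment 2 were below both of experiment 1, and the Ackr4ko-labelled one was the lowest. For Il1r2 the experiment difference was 0.93, with the WT-labelled arrays at 9.94 in experiment 2 and 7.93 in experiment 1. It was 3.06 without the Ackr4ko-labelled array of experiment 1, which leaves a WT-labelled array alone for experiment 1 and so mixes genotype with experiment. It turned to -1.21 without the WT-labelled array of experiment 1 and to -0.12 without the Ackr4ko-labelled array of experiment 2.

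T cells and NK cells carry Il2rb, and their markers were read beside it. Summed T cell marker signal was 4559 and 4386 in experiment 2 (labelled Ackr4ko and WT) and 3177 and 3377 in experiment 1, with 5 of 8 markers above background (Cd3d, Cd3e, Cd3g, Cd4 and Lat; 4 of them on the WT-labelled array of experiment 2) and Cd8a, Cd8b1 and Trat1 on no array. Summed NK cell marker signal was 1298 and 892 in experiment 2 and 716 and 742 in experiment 1, where Prf1 was the 1 marker of 6 well above background. The T cell markers above background on all 4 arrays were higher in experiment 2 by 0.81 (Cd3d), 0.16 (Cd3e), 0.67 (Cd3g) and 0.36 (Cd4). Prf1 was higher there by 0.52. Il7r, the interleukin 7 receptor chain, is on neither marker list and was chosen after its values were seen. It read 8.93 and 8.27 in experiment 2 and 6.17 and 5.13 in experiment 1. The part of such cells in the Il2rb difference was not tested, and donor and culture cannot be told apart.

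Other genes of these pathways were read from lists of 47 further cytokine receptors, 18 ligands and 22 signalling genes. Of the 47 receptors, 28 were tested, 10 were higher and 8 lower in both experiments, and 0 were called in limma (2 at an unadjusted p under 0.05). Over all genes 33% were higher and 20.9% lower in both, 0.0125% were called and 4.59% had an unadjusted p under 0.05. The median difference of the 28 was 0.02, against 0.08 over all genes. Il1rap, the accessory chain that completes the signalling interleukin 1 receptor, was at 7.08 and 7.66 on the Ackr4ko-labelled arrays and at 5.70 and 5.94 on the WT-labelled arrays. Both Ackr4ko-labelled arrays were higher, by a mean of 1.55 ± 0.35 (SE, limma adjusted p = 0.366). The WT-labelled array of experiment 2, at 5.94, was not well above background, while that of experiment 1 was so at 5.70. Csf2rb2, a beta chain of the interleukin 3 receptor in mouse, was at 10.90 and 11.49 on the Ackr4ko-labelled arrays and at 9.37 and 10.45 on the WT-labelled arrays, again without overlap. With the block, limma called both (adjusted p = 0.000605 for Il1rap and 0.0101 for Csf2rb2), as it did 3.33% of all genes. With normexp and the block Csf2rb2 alone was called, and with quantile normalization and the block neither was. Il27ra, which signals with Il6st, had the lowest mean difference of the 28, at -0.92 ± 0.53 (SE, limma adjusted p = 0.9996).

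In the gene table the genes after Il1r2 on chromosome 1 are Il1r1, Il1rl2, Il1rl1, Il18r1 and Il18rap, all of the interleukin 1 receptor family and chosen here for position. Il1r1, the signalling receptor for interleukin 1, read 6.08 and 4.96 on the Ackr4ko-labelled arrays and 5.80 and 5.11 on the WT-labelled arrays, above background in experiment 1 alone, with a difference there of 0.28. Il18r1 likewise was above background in experiment 1 alone, with -0.61. Il1rl1, Il1rl2 and Il18rap were above background on no array.

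**Figure D4:**
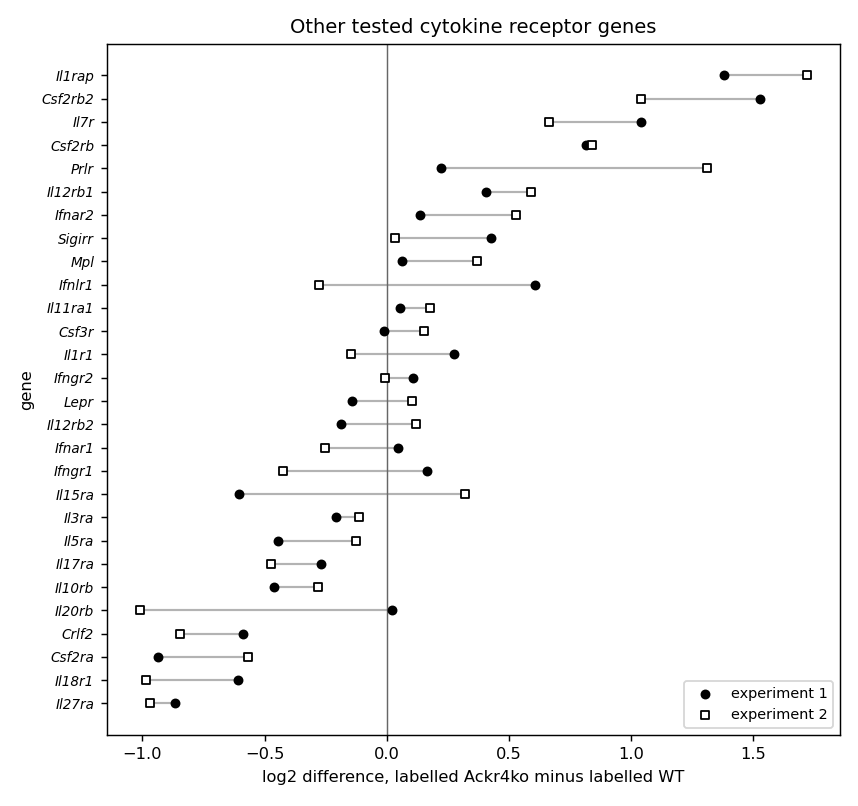
Log2 difference, labelled Ackr4ko minus labelled WT, for the 28 tested cytokine receptor genes outside the 10, ordered by their mean. Filled circles are experiment 1 and open squares experiment 2. Il1rap lies at the top, at 1.38 and 1.72, and Il27ra at the bottom, at -0.87 and -0.97.

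Among the ligands, 11 of 18 were well above background on no array, Il1a, Il1b, Il2, Il4, Il10 and Il21 among them. Of the 6 tested, 2 were higher and 1 lower in both experiments, against 33% and 20.9% of all genes, with a median difference of 0.11, and 0 were called in limma (1 at an unadjusted p under 0.05, Il6). Il6, the ligand of Il6ra, was at 8.52 and 9.65 on the Ackr4ko-labelled arrays and well above background on 0 of the 2 WT-labelled arrays. Its Ackr4ko-labelled arrays were brighter by 16.1-fold, the WT level being taken as the higher of the probe's own value and a floor. That floor was the lowest signal of any probe well above background on the array. Brighter probes were not always well above background, so 16.1-fold is not a strict lower limit. The limma adjusted p of 0.122 used the WT background readings themselves, and Il6 passed the filter through the Ackr4ko-labelled arrays alone. Ebi3, a subunit of cytokines of the interleukin 12 family, was at 15.42 and 15.08 on the Ackr4ko-labelled arrays and at 14.26 and 14.75 on the WT-labelled arrays, a difference of 0.74 ± 0.35 (SE). Clcf1, a cytokine of the interleukin 6 family, differed by -0.41 ± 0.43 (SE).

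Of 22 signalling genes, 21 were tested, with 4 higher and 11 lower in both experiments, against 33% and 20.9% of all genes, a median of -0.13 and 0 called in limma (0 at an unadjusted p under 0.05). Irs2, an adaptor of the interleukin 4 receptor, was at 11.26 and 10.03 on the Ackr4ko-labelled arrays and at 12.94 and 11.11 on the WT-labelled arrays. The genotypes overlapped, but within each experiment the Ackr4ko-labelled array was the lower one, with differences of -1.68 and -1.08. Limma called Irs2 with the block (adjusted p = 0.0039) and not without it (adjusted p = 0.9996). Ptpn11, the phosphatase SHP2, differed by -0.43 ± 0.35 and Tab2, an adaptor of the interleukin 1 pathway, by 0.42 ± 0.32 (SE).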

How the data were processed

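Spot intensity was read from the deposited scanner files, which the submitters' processing notes credit to Agilent Feature Extraction (version 10.7.3.1), from 50 ng of RNA labelled with Cy3. The authors' value table, a deposited intensity per probe whose making is not given in the sources used here, served as an alternative. All 4 arrays lay on 1 slide and in 1 scan. Log2 processed signal was set to each array's 75th percentile, outlier spots were dropped and the 4 spots averaged. Probes with at least 50% of spots well above background on at least 2 arrays were tested, and the brightest tested probe stood for its gene. Genes were named through a GRCm38.p6 table, used for names and gene order. No spot was saturated (0). The number of arrays limits precision: an exact permutation test of 2 against 2 cannot go below 0.333.

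Genotypes, and separately experiments, were tested in R 4.3.3 with limma 3.58.1 (two-sided, Benjamini-Hochberg over all tested genes), first without a block. The series description gives the experiments, which pair the arrays, and the correlation of deviations within an experiment was 0.42. With the main scaling the blocked fit gives all genes 1 variance. P-values, SEs and intervals of the fit without a block mix each gene's spread between these arrays with a spread shared by all genes. They therefore do not measure a gene's own spread alone. P-values of the blocked fit rest on the shared variance, with an SE of 0.348 for every receptor, and not on each gene's own spread. After quantile normalization the blocked fit did not share 1 variance, with an SE of 0.6661 for Il1r2 and 0.1955 for Il2rb. The fit without a block was also run on simulated arrays that had no correlation within an experiment. The blocked fit was not simulated. Text names all 10 receptors. From each list it names called genes and the 3 largest mean differences seen the same way in both experiments. For Il1r2 it names the 5 nearest profiles. The members, lists and markers were chosen with earlier results of these data known. A marker of the B cell list is not reported here. Alternatives covered the block, scaling, background correction (normexp, offset 50), dim probe filter, probe choice, value table and leaving out each array.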

Additional observations from a re-analysis of the deposited data

How the results depend on the processing

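Under the authors' value table every receptor turned sign: Il1r2 -3.16, Il2ra -0.23, Il2rb -0.53, Il2rg 0.42, Il4ra 0.67, Il21r -0.39, Il10ra 0.15, Il6ra 0.91, Il6st 0.36 and Il9r 0.37. Leaving out 1 array sets a lone array of 1 experiment against arrays of both, so the ranges that follow mix experiment with genotype. With all arrays, Il2rb differed by 0.52 and 0.49 within the experiments and by 2.27 between them. With 1 array left out, 4 receptors changed sign between the genotypes: Il2ra ranged from -0.15 to 0.71, Il2rb from -0.64 to 1.65, Il10ra from -0.26 to 0.14 and Il9r from -1.22 to 0.62. The sign held, over a range from 2.17 to 4.18 for Il1r2, from -0.54 to -0.07 for Il2rg, from -1.17 to -0.12 for Il4ra, from 0.41 to 0.58 for Il21r, from -1.67 to -0.01 for Il6ra and from -0.48 to -0.12 for Il6st. The experiment difference likewise ranged from -1.21 to 3.06 for Il1r2, from -0.42 to 0.62 for Il2ra, from -0.36 to 0.24 for Il21r and from -0.24 to 0.19 for Il10ra, and with the sign kept from -1.61 to -0.56 for Il9r.

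Calls for the genotype comparison were 1 receptor, Il1r2, with the replicate block, with normexp (adjusted p = 0.00588), with both together and without WT replicate 2, and 0 otherwise, the block after quantile normalization included (adjusted p = 0.485). The combined settings were chosen after seeing the data. All-gene calls were 2 without the block, 532 with it, 19 with normexp, 345 with normexp and the block and 0 with quantile normalization and the block, and 1 to 122 with 1 array left out. The experiment comparison called 2 receptors with the replicate block on genotype and 0 to 2 with 1 array left out. The replicate block called 2 other receptors, 1 ligand (Il6) and 1 signalling gene, and 1 ligand, Il6, passed with normexp, without WT replicate 1 or without WT replicate 2; its WT values are background readings, so it passed the filter through the Ackr4ko-labelled arrays alone. The cause of these changes was not tested. Il1r2 was the 1 receptor that differed 2-fold or more, in 1 direction, in both experiments under each scaling, filter and probe setting run. With 1 array left out, the lone array of a genotype or experiment is assumed to vary like the others. The experiment fits without replicate 1 of either genotype gave every receptor an SE of 0.575, so they too share 1 variance. The dimmer Il4ra and Il9r probes were limited by background in experiment 2.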
